A study of Mus musculus with 225 samples.

Results

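The genes described here are 38 genes of DNA replication and S phase, taken by name from a fixed list, among 23165 mouse genes in the deposited table of read counts. All 38 were also among the 10948 genes of the table of normalized values. They comprised the *Mcm2* to *Mcm7* helicase genes with *Cdc6* and *Gmnn*, the helicase activators *Cdc45* and *Gins2*, polymerase alpha and primase (*Pola1*, *Prim1*), the sliding clamp and the factors around it (*Pcna*, *Rfc2*, *Dscc1*, *Fen1*, *Rpa2*), nucleotide supply (*Rrm1*, *Rrm2*, *Tyms*), histone supply and chromatin copying (*Slbp*, *Nasp*, *Chaf1b*, *Uhrf1*, *Hells*, *Casp8ap2*), fork checkpoint and repair (*Clspn*, *Tipin*, *Exo1*, *Blm*, *Brip1*, *Rad51ap1*, *Ung*, *Usp1*, *Dtl*, *Wdr76*), and *E2f8* and *Ccne2*, which encode a transcription factor and a cyclin.

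A cell copies its genome once per cycle, in S phase. In G1 the MCM helicase ring is loaded on origins with the help of *Cdc6*, a step that geminin, the product of *Gmnn*, blocks later in the cycle. At the start of S phase *Cdc45* and the GINS complex activate the ring, polymerase alpha with primase lays down primers, and PCNA holds the replicative polymerases on DNA while nucleotides and histones are supplied. Many of the genes are transcribed under E2F factors around the passage from G1 to S, whereas genes of G2 and mitosis commonly follow through other promoter elements. In the limb bud at this stage, dividing mesenchyme and the first condensing cartilage lie side by side.

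The cells came from forelimbs of E12.5 mouse embryos heterozygous for *Hoxd11::GFP*, a tau-GFP knock-in at *Hoxd11* on a mixed C57Bl6CBAF1 background, and both tissues carried this allele. Autopods (future hands) and zeugopods (future forearms) were pooled over embryos, dissociated and sorted for GFP, so the brightest *Hoxd11*-transcribing cells were profiled and each tissue was 1 pooled sample. Single cells were captured on the Fluidigm C1 device, and their polyadenylated RNA was sequenced from SMARTer and Nextera XT libraries in 3 runs. The study left out 26 cells and retained 76 autopod cells (59 of run NXT0072 and 17 of NXT0143) and zeugopod cells of 2 runs (58 of NXT0142 and 65 of NXT0143).

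Reads on genes ranged from 187344 to 9437447 per autopod cell (median 2.83e+06) and from 186271 to 6801278 per zeugopod cell (median 3.23e+06), and the median cell had 3684 and 3995 genes with a read. The tissue labels were borne out by marker genes: *Hoxd13* had at least 5 reads in 65 of 76 autopod cells and 1 zeugopod cell, and *Shox2* in 0 and 73. No cell had 3 markers of muscle, epithelium or endothelium, while 17 zeugopod cells and no autopod cell had at least 2 of the tendon markers *Scx*, *Tnmd* and *Tnc*. Cells of a pool are not replicates, so no test was made between tissues. Intervals are exact binomial (Clopper-Pearson) 95% intervals, which cover counting error only, and the reads carried no molecular identifiers.

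The promoters of the list are shown first because they hold the best-known shared feature of these genes. RefSeq promoter windows on GRCm38.p6, from 250 bases before to 50 bases after a gene's start, were at hand for 29 of the 38 genes. E2F words of 4 spellings were searched on both strands (TTTCCCGC, TTTCGCGC, TTTGCCGC and TTTGGCGC). Of the 29 genes, 11 held at least 1 word, or 37.9%, against 2.61% of 27025 genes with such a window. *Mcm6* held the most, with 3, and *Mcm3*, *Mcm5* and *Mcm7* held 2 each. The 250 bases upstream of the start of the helicase genes *Mcm5* and *Mcm6* are printed here, 5′ to 3′ on the strand of the gene, with E2F words in capitals. Words that overlap on opposite strands form 1 run of capitals.

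Mcm5, chr8:75109259-75109508, plus strand: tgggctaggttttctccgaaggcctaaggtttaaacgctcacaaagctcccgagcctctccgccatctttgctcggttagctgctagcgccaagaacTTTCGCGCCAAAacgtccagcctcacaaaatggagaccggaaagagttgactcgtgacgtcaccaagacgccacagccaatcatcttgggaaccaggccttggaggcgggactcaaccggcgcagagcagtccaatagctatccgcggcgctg
Mcm6, chr1:128359706-128359955, minus strand: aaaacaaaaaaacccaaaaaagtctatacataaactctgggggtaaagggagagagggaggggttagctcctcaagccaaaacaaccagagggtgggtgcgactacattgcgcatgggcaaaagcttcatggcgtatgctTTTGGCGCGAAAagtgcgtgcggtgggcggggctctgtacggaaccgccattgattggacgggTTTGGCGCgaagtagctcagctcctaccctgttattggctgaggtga

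In *Mcm5* the words on opposite strands overlapped, beginning 153 and 149 bases before the start. In *Mcm6* an overlapping pair began 110 bases before the start and a further word 47 bases before it. These distances are to the start of the RefSeq window. In the GENCODE annotation both genes start further downstream, at chr8:75109569 for *Mcm5* and chr1:128359664 for *Mcm6*. The other genes with a word are given as at most 30 bases around it, again with the word in capitals. Those of *Clspn* and *Mcm3*, and the first of *Mcm7*, lay after the start of the RefSeq window. By the GENCODE gene starts, the words of *Cdc6* (start chr11:98907801), *Hells* (chr19:38930915) and *Uhrf1* (chr17:56303321) also lay after the start. So did the second word of *Mcm7* (chr5:138172422). *Mcm7* and *Uhrf1* each had a further window, and it held 0 words.

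Mcm3, chr1:20820275-20820304, minus strand: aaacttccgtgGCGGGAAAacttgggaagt
Mcm7, chr5:138171849-138171878, minus strand: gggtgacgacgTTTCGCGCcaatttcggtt
Mcm7, chr5:138172030-138172059, minus strand: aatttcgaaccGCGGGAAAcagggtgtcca
Hells, chr19:38930917-38930946, plus strand: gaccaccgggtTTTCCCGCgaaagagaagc
Cdc6, chr11:98908002-98908031, plus strand: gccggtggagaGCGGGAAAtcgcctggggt
Dtl, chr1:191575534-191575563, minus strand: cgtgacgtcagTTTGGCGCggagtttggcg
Casp8ap2, chr4:32615283-32615312, plus strand: aagtaccagagTTTGGCGCcaactggaatc
Clspn, chr4:126556990-126557019, plus strand: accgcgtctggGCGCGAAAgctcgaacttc
Pola1, chrX:93632275-93632304, minus strand: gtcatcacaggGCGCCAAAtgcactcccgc
Uhrf1, chr17:56304117-56304146, plus strand: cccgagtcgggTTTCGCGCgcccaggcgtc

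The same windows were read for other elements of cell cycle promoters. A CCAAT word (CCAAT on either strand) was found in 22 of the 29 genes, 75.9% against 41.1% of all genes. The CHR element of late cell cycle genes (TTTGAA or TTCGAA, either strand) was found in 7 of 29, 24.1% against 21.7% of all genes. A list of 26 genes of G2 and mitosis, such as *Cdk1*, *Top2a* and *Mki67*, showed the other arrangement: of 24 with a window, 1 (4.17%) held an E2F word, 20 (83.3%) a CCAAT word and 18 (75%) a CHR word. E2F words were thus more frequent than CHR words in the replication list and less frequent in the G2/M list, while CCAAT words were frequent in both. Among 54 other replication genes with a window, such as *Lig1* and *Dnmt1*, 22 (40.7%) held an E2F word. A word is a match of letters and not a measured site.

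Detection varied widely over the list. A gene was counted as detected in a cell at 5 reads, and over the 38 genes the median share of cells was 35.5% in autopods and 35.8% in zeugopods. *Nasp*, a histone chaperone, was detected most often, in 65 of 76 autopod cells (85.5%, interval 75.6 to 92.5) and in zeugopod cells in 85.4% (interval 77.9 to 91.1). At the other end stood *E2f8*, a late-acting repressor of the E2F family, with 3 autopod cells (3.95%, 0.822 to 11.1) and 11 zeugopod cells (8.94%, 4.55 to 15.4). *Brip1*, a repair helicase, and *Dscc1*, a subunit of an alternative clamp loader, were also under 12% in each tissue, and neither was found in the 17 autopod cells of NXT0143, which allows a share of up to 17.6% (3 counts over the cells, the limit used for a count of 0).

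**Figure D1:**
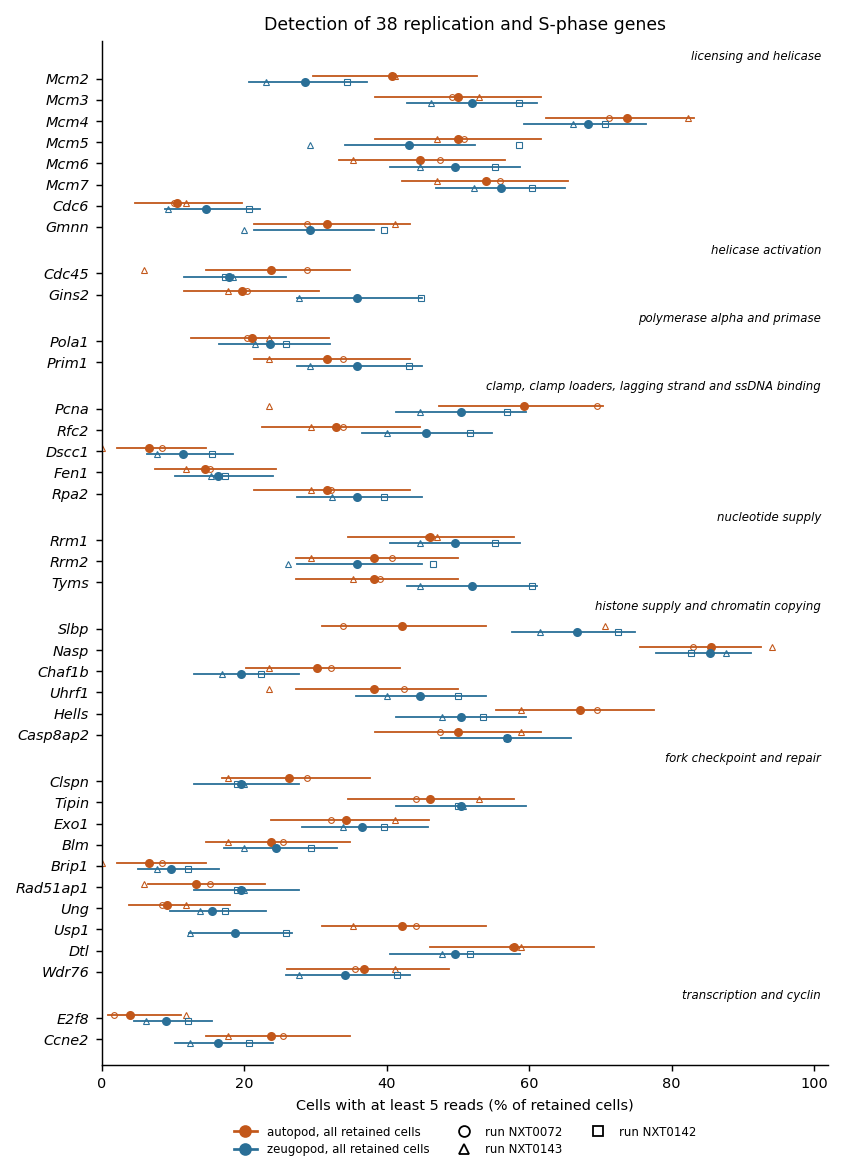
Share of retained cells with at least 5 reads (x axis, percent) for each of the 38 genes, grouped by role; filled points with bars give all retained autopod or zeugopod cells with the exact 95% interval, and open symbols the runs. *Nasp* and *Mcm4* lie to the right in both tissues, *E2f8*, *Brip1* and *Dscc1* to the left, and *Usp1* and *Slbp* show the tissues apart.

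Among licensing and helicase genes *Mcm4* led, with 73.7% of autopod cells (62.3 to 83.1) and 68.3% of zeugopod cells (59.3 to 76.4). Its length-scaled normalized value ranged from 0.277, the value of a cell without reads, to 5023 in autopod cells (median 52.1) and to 1449 in zeugopod cells (median 55.7). *Mcm7*, *Mcm3*, *Mcm5* and *Mcm6* were each detected in 43.1% to 56.1% of the cells of a tissue. *Mcm2* was lower, at 40.8% (29.6 to 52.7) and 28.5% (20.7 to 37.3). The 6 subunits sit in 1 ring, yet most cells had reads of only some of them: all 6 were detected in 8 of 76 autopod cells (10.5%, 4.66 to 19.7) and 10 zeugopod cells (8.13%, 3.97 to 14.4), and none in 1 and 11 cells. Cells with all 6 had a median of 4759 and 5016 detected genes, against 3243 and 3173 in cells with none, so the count of subunits moved with the breadth of the library; its part was not tested. The loader *Cdc6* was sparse (10.5% and 14.6%), and *Gmnn*, whose product inhibits loading, was found in 31.6% and 29.3%.

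Helicase activation and priming genes were detected less often. *Cdc45*, which rides with the ring, was found in 23.7% of autopod cells (14.7 to 34.8) and 17.9% of zeugopod cells (11.6 to 25.8). *Gins2*, a GINS subunit, was found in 19.7% (11.5 to 30.5) and 35.8% (27.3 to 44.9). Their products act in the same complex, and *Gins2* was detected in 4 of 18 autopod cells with *Cdc45* and 11 of 58 without (22.2%, 6.41 to 47.6, and 19%, 9.87 to 31.4), and in 9 of 22 zeugopod cells with *Cdc45* and 35 without (40.9%, 20.7 to 63.6, and 34.7%, 25.5 to 44.8), intervals that overlapped widely. *Pola1* and *Prim1*, which encode the catalytic subunit of polymerase alpha and the primase, were found together more often, with intervals that still overlapped. *Prim1* was found in 8 of 16 autopod cells with *Pola1* (50%, 24.7 to 75.3) and 16 of 60 without (26.7%, 16.1 to 39.7), and in 16 of 29 (55.2%, 35.7 to 73.6) and 28 of 94 (29.8%, 20.8 to 40.1) zeugopod cells.

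*Pcna*, the clamp, was found in 59.2% of autopod cells (47.3 to 70.4) and 50.4% of zeugopod cells (41.3 to 59.5). Within autopods the runs differed: 69.5% of NXT0072 cells had *Pcna* and 23.5% of NXT0143 cells. The processed pseudogene *Pcna-ps2* received reads equal to 15.5% and 14.5% of those on *Pcna*, so the level of *Pcna* is uncertain to that extent. In the autopod run with few *Pcna* cells the figure was 33.7%, against 15.3% in NXT0072. *Rfc2*, a clamp loader subunit, was at 32.9% and 45.5%, and *Rpa2*, which coats single-stranded DNA, at 31.6% and 35.8%. *Fen1*, the flap nuclease of the lagging strand, was at 14.5% and 16.3%, but its exons overlap *Tmem258* and the length behind its values was 0.384 kb, 15.9% of its annotated exon length, which limits what could be counted.

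Nucleotide supply is represented by both subunits of ribonucleotide reductase and by thymidylate synthase. *Rrm1* was found in 46.1% (34.5 to 57.9) and 49.6% (40.5 to 58.8) of cells, *Rrm2* in 38.2% (27.2 to 50) and 35.8% (27.3 to 44.9). *Rrm2*, the subunit whose level changes over the cycle, went with *Rrm1*: it was detected in 19 of 35 autopod cells with *Rrm1* (54.3%, 36.6 to 71.2) and 10 of 41 without (24.4%, 12.4 to 40.3), and in 33 of 61 (54.1%, 40.9 to 66.9) and 11 of 62 (17.7%, 9.20 to 29.5) zeugopod cells. *Tyms*, which makes thymidylate, was at 38.2% and 52%. The rank correlation of *Rrm1* and *Rrm2* in CPM (reads scaled to the cell's total on genes) was 0.27 over the 76 autopod cells and 0.44 over the zeugopod cells, and 0.25 and 0.27 given the number of genes detected.

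Of the genes for histone supply and chromatin copying, *Hells*, a remodeler, was found in 67.1% (55.4 to 77.5) and 50.4% (41.3 to 59.5) of cells. *Slbp*, which binds the stem-loop of histone mRNAs, was at 42.1% (30.9 to 54) and 66.7% (57.6 to 74.9), and *Casp8ap2*, needed for histone gene transcription, at 50% and 56.9%. *Uhrf1*, which brings DNA methylation to new strands, was at 38.2% and 44.7%, and *Chaf1b*, of chromatin assembly factor 1, at 30.3% and 19.5%. The replication-dependent histone genes themselves, whose mRNAs largely lack the poly(A) tail captured here, summed to a median of only 19.4 CPM over 65 genes in autopod cells and 24.9 CPM in zeugopod cells.

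Among fork checkpoint and repair genes *Dtl*, an adaptor of the ubiquitin ligase that clears *Cdt1* in S phase, was found in 57.9% (46 to 69.1) and 49.6% (40.5 to 58.8) of cells, and *Tipin*, a fork protection factor, in 46.1% and 50.4%. Where *Tipin* was detected its median normalized value was 877 and 873, the highest among the genes found in 25% or more of autopod or zeugopod cells, whereas *Exo1*, a 5′ exonuclease found in 34.2% and 36.6% of cells, had 6.40 and 3.55. *Usp1*, a deubiquitinase that acts on PCNA, was the gene with the largest gap in favour of autopods: 32 of 76 autopod cells (42.1%, 30.9 to 54) and 23 zeugopod cells (18.7%, 12.2 to 26.7). The order held in each run, with 44.1% and 35.3% in the autopod runs and 25.9% and 12.3% in the zeugopod runs. *Clspn*, an adaptor of the fork checkpoint, stood at 26.3% and 19.5%, and *Wdr76*, a WD repeat gene of the S-phase programme, at 36.8% and 34.1%. *Ccne2*, the E-type cyclin of the G1 to S passage, was found in 23.7% of autopod cells (14.7 to 34.8) and 16.3% of zeugopod cells (10.2 to 24).

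The gap in *Usp1* was also read at even depth. With each cell thinned to 500000 reads, which kept 72 autopod cells and 56 and 63 zeugopod cells of NXT0142 and NXT0143, the shares with a read of *Usp1* were 38.9% and 17.6%. At a normalized value of at least 5 in place of 5 reads they were 30.3% and 9.76%.

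Per cell, the number of the 38 genes detected ran from 2 to 32 in autopods (median 12.5) and from 0 to 34 in zeugopods (median 12). At least 20 genes were detected in 14 autopod cells (18.4%, 10.5 to 29) and 26 zeugopod cells (21.1%, 14.3 to 29.4); 9 and 8 cells lay between 18 and 21 genes, near that limit, which marks a range and not a cell type. The number rose with the number of all genes detected, with a rank correlation of 0.63 over the 76 autopod cells and 0.76 over the zeugopod cells, and less with depth (0.29 and 0.35). After thinning, the correlation with the genes detected was 0.60 and 0.75, and the median number of members with a read was 13 and 12.

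**Figure D2:**
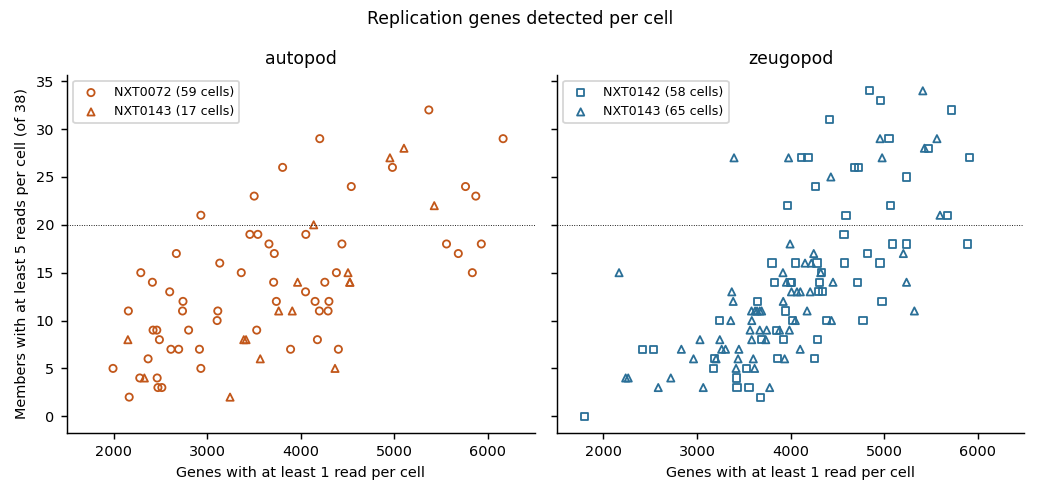
Number of the 38 genes with at least 5 reads (y axis) against the number of genes with a read (x axis) in each retained autopod (left) and zeugopod (right) cell, with symbols by run; the dotted line marks 20 genes. Counts rise with library breadth in both tissues, and 14 autopod and 26 zeugopod cells reach the line.

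Levels were then compared between tissues, as the difference in mean log2(normalized value + 1), for the 27 members detected in 25% or more of autopod or of zeugopod cells. Over these the median difference, autopod minus zeugopod, was 0.25, against -0.12 over all 4898 genes that passed the same filter, and 15 were higher and 12 lower. A gene that passed through 1 tissue alone is more likely to differ, so these counts describe the genes that passed and not the list. The 11 that did not pass were *Cdc6*, *Cdc45*, *Pola1*, *Dscc1*, *Fen1*, *Blm*, *Brip1*, *Rad51ap1*, *Ung*, *E2f8* and *Ccne2*, and with them the median over all 38 was -0.047. A difference of at least 1 in favour of autopods was reached by 1 member, *Usp1*, where 6.06% of all genes tested reached it, and a difference of at least 1 in favour of zeugopods by 2 members, *Gins2* and *Slbp*, where 13.4% of all genes did. The members were thus past this limit no more often than the background.

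Runs NXT0072 (59 autopod cells) and NXT0142 (58 zeugopod cells) held a single tissue each. Only NXT0143 held both tissues, with 17 autopod and 65 zeugopod cells. The difference was therefore recomputed within NXT0143 and between NXT0072 autopods and NXT0142 zeugopods. *Usp1* was higher in autopods in both, by 0.80 and 1.09, against 1.11 over all cells, and it was the only member to do so while past 1 over all cells, where 5.25% of all genes did. Its size depended on the pseudocount, with 1.52 at 0.1 and 0.51 at 10. *Gins2* was lower in both, by -0.16 and -2.13 against -1.14 over all cells, where 9% of all genes showed the like. Its length behind the values was 32.8% of its exon length, since its exons overlap *Gse1*. *Slbp* did not keep its direction: it was 0.69 higher in autopods within NXT0143 and -2.19 between the other runs. Over the 27 members the median was 0.29 within NXT0143 (all genes 0.18) and -0.33 between the other runs (all genes -0.34), so the sign of the members' shift followed the run comparison, as did that of all genes; tissue and run cannot be told apart outside NXT0143. The differences rest on the deposited cell factors, whose rank correlation with the spike-in reads of the cells was between -0.22 and 0.15 over the 4 groups of tissue and run. In CPM, which does not use them, the median over members was 0.13 and over all genes -0.29. That too changed sign with the run comparison. Members were at 0.18 within NXT0143 (all genes -0.02) and -0.49 between the other runs (all genes -0.41).

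**Figure D3:**
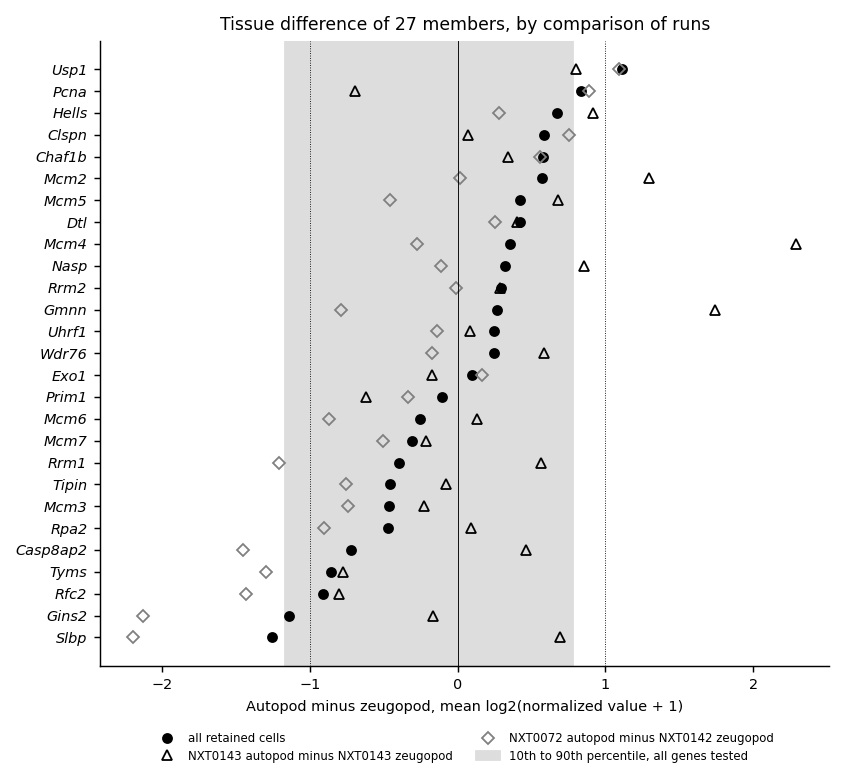
Autopod minus zeugopod difference in mean log2(normalized value + 1) (x axis) for the 27 members that passed the filter, over all retained cells (filled) and in each of 2 comparisons of runs (open); the band holds the middle 80% of all 4898 genes tested. *Usp1* lies to the right in all comparisons, while 14 of the 27 change side between the comparisons of runs, *Mcm4*, *Gmnn* and *Slbp* by the widest gaps.

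Across cells of 1 tissue the members rose and fell together. The median rank correlation of normalized values over pairs of members was 0.29 in 76 autopod cells (26 members, 325 pairs) and 0.28 in zeugopod cells (24 members, 276 pairs), while over all pairs of genes under the same filter it was 0.15 and 0.08. In CPM it was 0.20 and 0.22, against 0.06 and 0.03. Given the number of genes detected, the normalized values gave 0.17 and 0.14 for members and 0.02 and 0.01 for all genes. All pairs share the cell's library, so these values are a description.

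The strongest single pairs involved *Tyms*. In autopods *Rrm2* with *Tyms* was highest in CPM (0.57), followed by *Exo1* with *Usp1* (0.51) and *Tyms* with *Dtl* (0.50). In zeugopods *Tyms* with *Uhrf1* (0.59), *Gmnn* with *Tyms* (0.56) and *Mcm5* with *Mcm6* (0.53) led. At the other end *Pcna* and *Slbp* were opposed in autopods (-0.23), and the lowest zeugopod pair was *Prim1* with *Slbp* (-0.04). Within the MCM ring the median over 15 pairs was 0.21 in autopods and 0.27 in zeugopods, near that of MCM genes with the other members (0.20 and 0.21).

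**Figure D4:**
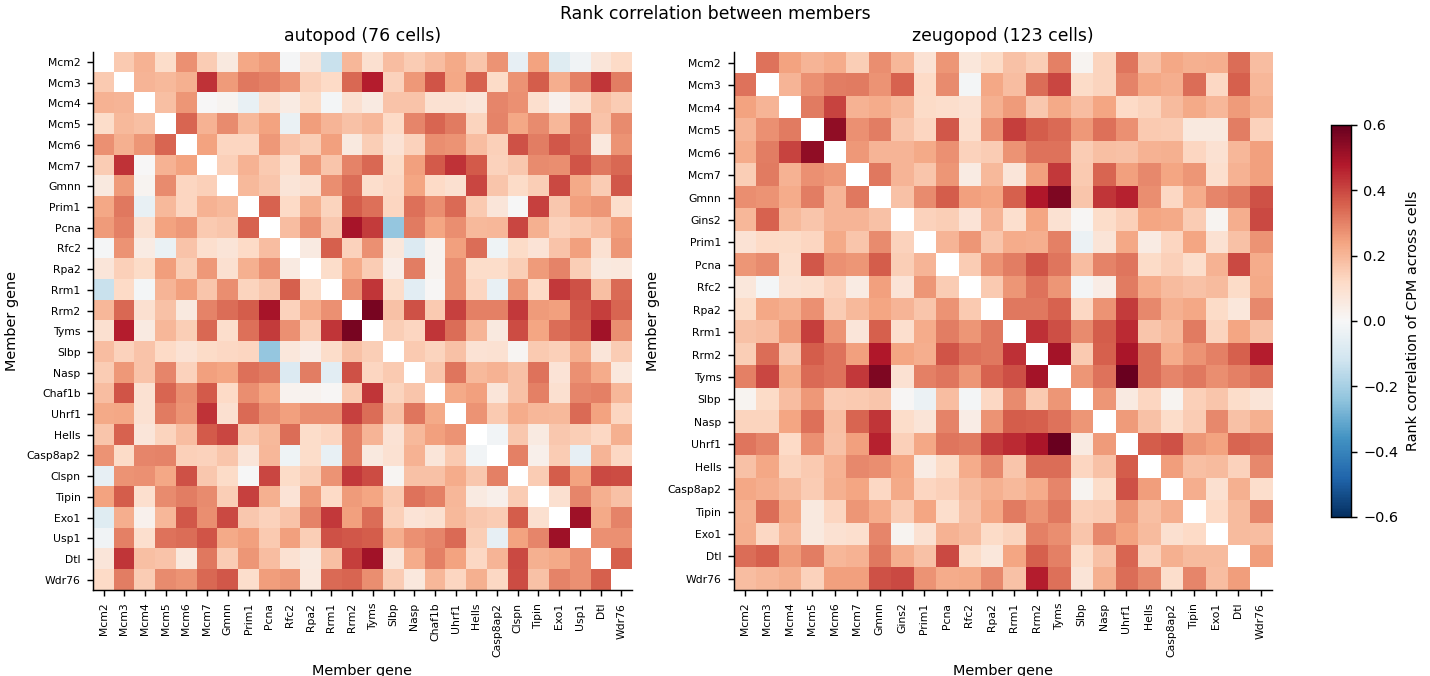
Rank correlation of CPM across cells (colour, from -0.6 in blue to 0.6 in red) for every pair of members that passed the filter in autopods and zeugopods, in order of role. Most pairs are above 0; *Rrm2*, *Tyms* and *Uhrf1* form the darkest lines, and *Pcna* with *Slbp* is the lowest autopod pair.

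A replication score, the mean of log2(CPM + 1) over the 38 genes, was then set against each gene detected in 25% or more of all retained cells, as the mean rank correlation over the 4 groups of tissue and run. A member was set against the score of the other 37. The 25 members that passed had a median of 0.41, and 24 were above 0 in all 4 groups, *Slbp* being the exception. *Tyms* (0.62), *Rrm2* (0.60), *Uhrf1* (0.58), *Mcm7* and *Mcm3* (both 0.54) followed the others most closely, and *Gins2* (0.18) and *Rfc2* (0.26) least. Among 4085 genes outside the list the median was 0.12, and 5.31% reached 0.3, against 21 of the 25 members.

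The 10 genes outside the list with the highest values were led by *Lig1*, DNA ligase 1 of the lagging strand (0.58), *Dnmt1*, the maintenance DNA methyltransferase (0.54), *Nup85* of the nuclear pore (0.54) and *Rfc5*, a clamp loader subunit (0.54). *2810417H13Rik* (0.53), *Dut*, which removes dUTP (0.51), *Top2a* (0.51), *Pcna-ps2* (0.51), *Rfc4* (0.49) and *Ranbp1* (0.49) followed. Reads on the pseudogene *Pcna-ps2* may come from the member *Pcna*, so its value is not independent of the list. Of 32 other replication genes tested, 19 reached 0.3, including *Topbp1* (0.49) and the S-phase kinase *Chek1* (0.45), while the origin recognition subunits tested were under it (*Orc6* 0.21, *Orc2* 0.12, *Orc3* 0.07, *Orc4* -0.04). Of 7 regulators of G1, among them *Ccnd1* (0.24) and *Cdkn1b* (-0.07), none reached it. Of 13 G2/M genes, 11 did, with a median of 0.36, so a share like that of the members was also found in this later programme. Given the number of genes detected, the G2/M median was 0.25 in autopods and 0.07 in zeugopods. That of the members was then 0.29 and 0.31. *Dcaf6* (-0.31), *Malat1* (-0.27) and the cartilage collagen *Col2a1* (-0.25) were the lowest. *Col2a1* ranged from -0.61 in autopod cells of NXT0143 to 0.10 in zeugopod cells of NXT0143. Given the number of genes detected, it was -0.29 in autopods and 0.20 in zeugopods. *Malat1* was then -0.17 and 0.06, and *Dcaf6* -0.36 and -0.13.

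Late-cycle transcripts were summed in a further score over the 26 G2/M genes, which shares no gene with the list. The rank correlation of the 2 scores was 0.47 over autopod cells and 0.59 over zeugopod cells, and 0.43 and 0.34 given the number of genes detected. The latter value moved with the run in zeugopods, to 0.16 in NXT0142 and 0.48 in NXT0143, and was 0.33 and 0.58 in the autopod runs NXT0072 and NXT0143. Without that adjustment it was 0.40 and 0.68 in the autopod runs NXT0072 and NXT0143, and 0.55 and 0.61 in the zeugopod runs NXT0142 and NXT0143. The relation was not a line. Of the cells with a replication score of at least 4, 4 of 8 in autopods and 9 of 20 in zeugopods had a G2/M score under 2, and of those with a G2/M score of at least 2, 22 of 26 and 17 of 28 had a replication score under 4. Both scores were low in 46 and 86 cells. These limits were read from the plot of the scores, and 5 autopod and 3 zeugopod cells lay within 0.5 of the G2/M limit and 3 and 8 within 0.5 of the other.

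**Figure D5:**
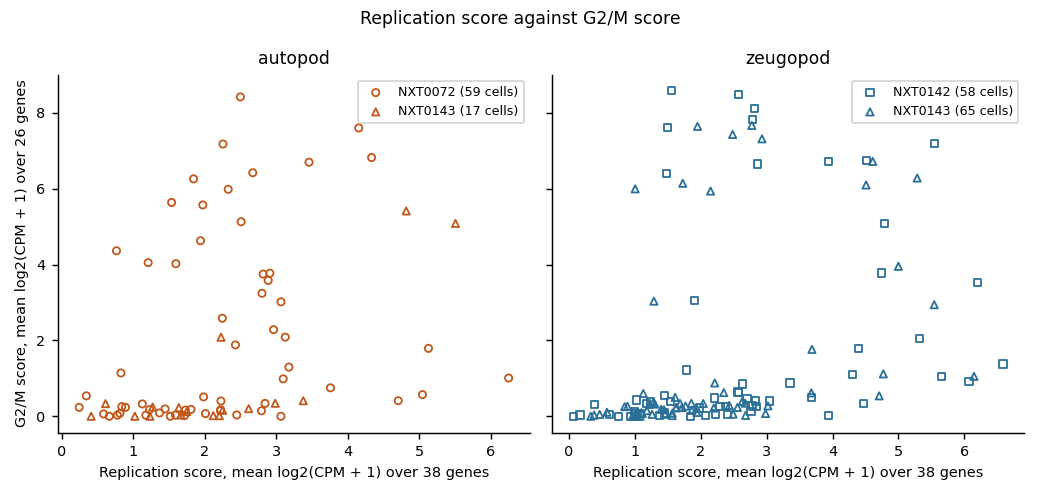
G2/M score (y axis) against replication score (x axis), each the mean of log2(CPM + 1) over its genes, in every retained autopod (left) and zeugopod (right) cell, with symbols by run. Most cells lie low on both axes; some reach a replication score of 4 with a G2/M score under 2, some reach both, and others have a G2/M score over 2 with a replication score under 4.

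The G2/M score, which the list did not enter, then served to ask which members were also found in cells with late-cycle transcripts. It was at least 2 in 26 of 76 autopod cells and 28 zeugopod cells (22.8%). These cells had more genes detected, with medians of 3727 against 3458 in autopods and 4866 against 3882 in zeugopods, so all shares below have to be read beside that breadth, whose part was not tested. The share of cells was at least 25 percentage points higher in them for 5 of 27 members in autopods, where 6.06% of 4883 genes were, and for 8 of 27 in zeugopods, where 9.36% were. *Rrm1*, *Rrm2*, *Tyms* and *Uhrf1* were on both lists. The median difference over all 4883 genes was 4.0 points in autopods and 9.40 in zeugopods. Over the 27 members it was 11.8 and 18.9 points.

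*Rrm2* was detected in 16 of 26 autopod cells with a high G2/M score (61.5%, 40.6 to 79.8) and 13 of 50 others (26%, 14.6 to 40.3), and in 22 of 28 (78.6%, 59 to 91.7) and 22 of 95 (23.2%, 15.1 to 32.9) zeugopod cells. *Tyms* showed the same shares as *Rrm2* in autopods, and 25 of 28 (89.3%) and 39 of 95 (41.1%) in zeugopods. No *Mcm* gene was past the limit, and their differences varied in sign in autopods. *Mcm5* was higher with a high G2/M score in both tissues, at 61.5% and 44% in autopods and 60.7% and 37.9% in zeugopods. *Mcm7* stood at 57.7% and 52% in autopods, near the median difference of all genes, and at 67.9% and 52.6% in zeugopods. *Mcm3* differed by 5.85 points in autopods, also near that median, and by 6.62 in zeugopods, under the median there. *Mcm2* differed by -15.2 and 4.77. *Mcm4* was found in 16 of 26 autopod cells with a high G2/M score (61.5%, 40.6 to 79.8) and 40 of 50 others (80%, 66.3 to 90), and *Mcm6* in 38.5% and 48%. In zeugopods *Mcm6* was even (50% and 49.5%), *Mcm4* stood at 75% and 66.3%, and *Gins2* at 25% and 38.9%. The base excision enzyme *Ung* was also sparser in cells with a high G2/M score, at 3.85% and 12% in autopods and 7.14% and 17.9% in zeugopods, with few cells behind each share.

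A set of 4 genes that did not pass the filter, named after their values were seen, were concentrated in zeugopod cells with a high G2/M score. No share over all genes stands beside them, since the background above holds only genes that passed. The other members that did not pass showed smaller gains, from *Cdc45* (35.7% and 12.6% of others) to *Dscc1* (17.9% and 9.47%). *Ung* was lower (7.14% and 17.9%). *E2f8* was detected in 11 of 28 (39.3%, 21.5 to 59.4) and in 0 of the 95 others, which allows a share of up to 3.16% by the limit of 3 counts (exact interval up to 3.81%). The cells came from both runs, 7 of 15 in NXT0142 and 4 of 13 in NXT0143, and after thinning a read was found in 10 of 27 and 0 of 92. *Brip1* was detected in 10 of 28 (35.7%, 18.6 to 55.9) and 2 of 95 (2.11%, 0.256 to 7.40). *Rad51ap1*, a DNA repair gene, was found in 15 of 28 (53.6%) and 9 of 95 (9.47%), and *Blm*, the Bloom helicase, in 17 of 28 (60.7%) and 13 of 95 (13.7%). In autopods *Blm* showed a like split, 11 of 26 (42.3%) and 7 of 50 (14%), but *Rad51ap1* did not, with 3 of 26 (11.5%) and 7 of 50 (14%), and *E2f8* was found in only 2 of 26 and 1 of 50. Whether the tissues differ in this was not tested.

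Cells with cartilage genes were the next subset. At least 3 of *Sox9*, *Col2a1*, *Acan*, *Col9a1* and *Matn1* were detected in 35 of 76 autopod cells and 38 zeugopod cells. In autopods these cells had a replication score of 1.81 ± 0.86 (SD over 35 cells) and the others 2.65 ± 1.43 (SD over 41 cells). The difference of -0.84 was smaller in size than either SD, which describes single cells and not the uncertainty of a mean. The order was the same in NXT0072 (-0.77) and NXT0143 (-1.05). Of the 27 members tested, 26 were lower in them, where 68.1% of all genes were. The largest differences were in *Dtl* (-2.42 on the log2 CPM scale) and *Tipin* (-2.30), and *Pcna* was 0.48 higher. They had fewer genes detected, a median of 3390 against 3890, and the part of this was not tested.

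In zeugopods the scores were 2.49 ± 1.44 (38 cells) and 2.33 ± 1.52 (85 cells). The difference of 0.16 changed sign between runs (-0.21 in NXT0142 and 0.47 in NXT0143). Of the 27 members, 10 were lower in cells with at least 3 cartilage markers, where 61% of all genes were. *Tipin* showed the autopod split most plainly, found in 9 of 35 autopod cells with at least 3 cartilage markers (25.7%) and 26 of 41 others (63.4%).

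Finally, the score was set against the number of *Hoxd* genes on per cell (a normalized value of at least 5 and at least 5% of the highest *Hoxd* gene). In autopods it was 1.79 ± 0.998 in 23 cells with 1 gene, 2.49 ± 1.16 in 27 with 2, 2.15 ± 1.38 in 14 with 3 and 3.14 ± 1.63 in 9 with 4 (SD over cells). The genes detected rose alongside, with medians of 2800, 3540, 4051 and 5557. The rank correlation over 76 cells was 0.25, and 0.00 given the number of genes detected. In zeugopod cells it was -0.08, and -0.12 given the genes detected.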

How the data were processed

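Single cells of E12.5 autopods and zeugopods were grouped by the tissue in their labels and by run. According to the study's methods, reads of 75 bases were mapped uniquely to mm10 and the spike-in sequences with Bowtie2 (version not given in the sources used here), and reads were counted over Ensembl GRCm38 genes. The deposited counts are whole reads per gene and cell. The deposited normalized signal was made by the authors from counts with scran size factors from spike-ins, centred within batch, and divided by gene length, per the study's methods. The factor of a cell, read from the deposited values, did not follow that cell's deposited spike-in reads (rank correlations from -0.22 to 0.15), so how it was made is uncertain. Of its values above 20 scaled reads, 99.7% lay within 5% of 1 factor per cell, and 56060 values of genes with reads (2.57%) sat at the floor of the table. The 26 cells that the study left out and the 92 spike-in rows entered no comparison.

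The members and lists were chosen with earlier results of these data known. Detection was a count of at least 5 reads. CPM was computed from reads on genes, and log2 values used a pseudocount of 1. Genes entered the tissue comparison if detected in 25% or more of autopod or of zeugopod cells. Members past a difference of 1 and the 10 genes outside the list nearest to the score were named. Each tissue was 1 pooled sample, so no p-value was computed and intervals and SDs describe cells. Alternatives were other detection limits, pseudocounts and filters, CPM, thinning to 500000 reads and single runs. The G2/M and replication limits of 2 and 4, and the alternatives for them, were chosen after seeing the data. On simulated data, 195 of 200 genes changed by 2 (log2) among 4898 passed 1 in the right direction (97.5%). The simulation was read in CPM and held no run effect. It therefore checks the calculation and not the reported difference in normalized values over runs. Depth is given with the results. Python 3.11.15, numpy 2.4.6, pandas 2.3.3, scipy 1.17.1 and matplotlib 3.10.9 were used.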

Additional observations from a re-analysis of the deposited data

Results flagged for a closer look

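Of the 27 members tested, 14 changed sign between the 2 comparisons of runs, and 3 did so with a gap of at least 2. In these 3 genes the autopod and zeugopod cells of NXT0143 differed in the opposite direction from those of NXT0072 and NXT0142, in mean log2(normalized value + 1). *Mcm4* was 2.29 higher in autopods within NXT0143 and -0.28 between the other runs. *Gmnn* was 1.74 higher within NXT0143 and -0.79 between the others. *Slbp* was 0.69 higher within NXT0143 and -2.19 between the others. The autopod side of NXT0143 holds only 17 cells, and whether the run comparisons differ was not tested.

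In zeugopods the replication score of cells with at least 3 cartilage markers was -0.21 relative to the others in NXT0142 and 0.47 in NXT0143, opposite directions whose difference was not tested.

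Among the 26 cells that the study left out, which no comparison used, 8 had at least 5 reads of a member, and the most members in such a cell was 4. These are signals in data outside the comparisons.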

How the results depend on the processing

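No paired analysis was possible because each tissue was 1 pooled sample, no test was made and cell numbers do not pair cells. The median autopod share over members was 46.7% at 1 read, 28.9% at a normalized value of 5, 38.9% after thinning and 29.4% in NXT0143. Members per autopod cell were 16.5 at 1 read and 11 both with the left-out cells included and in NXT0143, and 15 per zeugopod cell at 1 read. The median tissue difference changed sign without the filter (-0.047) and between NXT0072 and NXT0142 (-0.33). Members at least 1 higher in autopods numbered 0 at a pseudocount of 10 and after thinning, and 3 in NXT0143. Those at least 1 lower numbered 4 at a pseudocount of 0.1, in CPM and after thinning, 0 at a pseudocount of 10 and in NXT0143, and 6 between NXT0072 and NXT0142. *Slbp* changed sign in NXT0143 (0.69). The median correlation over member pairs was 0.20 in CPM, 0.17 given the genes detected, 0.20 in thinned CPM and 0.35 in NXT0143 in autopods, and 0.22, 0.14, 0.22 and 0.25 in zeugopods. That of the replication and G2/M scores was 0.68 in autopod NXT0143 and 0.34 in zeugopods given the genes detected. The cartilage difference in autopods was -0.28 at 2 markers, -1.04 in normalized values and -1.05 in NXT0143, and in zeugopods it changed sign at 2 markers (-0.18) and in NXT0142 (-0.21). At 2 markers autopod NXT0143 held no other cells and gave no value. The median share difference by G2/M score over the 38 members was 10.4 points in autopods and 18.7 in zeugopods. Its alternatives were added after seeing the data. In autopod NXT0143 it was 28.6 points, where only 3 of 17 cells had a high G2/M score. In zeugopods it was 17.2 after thinning and 17.3 in NXT0142. The causes were not tested. Of 76 shares, 24 left their interval at 1 read, 15 at a normalized value of 5 and 0 after thinning. Thinning also lowered the detection limit to 1 read, so it does not isolate depth.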

Other observations

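Replication-dependent histone genes, of which 3 of 65 passed the filter, showed a rank correlation of their summed CPM with the replication score of 0.31 over 76 autopod cells and 0.32 over zeugopod cells. The sum ranged from 0 to 3544 CPM in autopods and from 0 to 833 CPM in zeugopods.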
